A study of Mus musculus with 132 samples.

Results

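Myb, Gfi1, Gfi1b, Hhex, Mecom, Bcl11a, Hlf, Kmt2a and Prdm16 encode nuclear regulators that hematopoietic stem and progenitor cells depend on. They were taken by symbol from the count table of a mouse embryonic stem cell (mESC) differentiation series, and all 9 were found among its 25146 genes. Transcription was measured by poly(A)-minus RNA-seq, which discards polyadenylated RNA and retains nascent transcripts, in 23 libraries. The question set by the design was how these genes changed as mESCs became Flk1+ mesoderm and then CD41+ hematopoietic progenitor cells (HPCs), and whether deletion of a CTCF site beside a Runx1 promoter altered them.

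All cells derived from the male 129/Ola line E14-TG2a. Wild-type cells were sampled undifferentiated (day 0, 2 libraries labelled as technical replicates of a single culture), as sorted Flk1+ mesoderm (day 4, 3 libraries) and as HPCs sorted for CD41 in the absence of CD45 and Ter119 (day 7, 4 libraries). P1-CTCF-KO cells lacked the CTCF site at the distal Runx1 promoter and P2-CTCF-KO cells the site at the proximal one, each by CRISPR-Cas9 in 3 clones. P1-CTCF-KO gave 3 mesoderm and 3 HPC libraries, P2-CTCF-KO gave 3 mesoderm and 5 HPC libraries, and undifferentiated RNA of these genotypes is not analysed here. Wild-type clone B9.3 and P2-CTCF-KO clones D2.1 and D10.1 each supplied a second HPC library, so n counts libraries and not independent clones. The name E9.1 belongs to a P1-CTCF-KO clone and to a different P2-CTCF-KO clone.

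Each mESC library held 20532578 to 24283287 counts, each mesoderm library 18233679 to 24406998 and each HPC library 7805102 to 13513677, but entries of ribosomal RNA or of several loci took 68.1% to 91.0% of them. What remained for all other genes was 4858660 to 7748567 counts a library in mESCs, 1897917 to 2288976 at the mesoderm stage and 878966 to 1584401 in HPCs. A floor of 3 counts corresponded to 0.0164 to 0.0294 CPM, which are counts scaled to the library size, in mESCs, 0.123 to 0.364 in mesoderm and 0.209 to 0.608 in HPCs, and covers counting error only. Defining markers followed the labels: Pou5f1 averaged 5.31 CPM in mESCs and at most 0.959 in a later group, Kdr, which encodes Flk1, averaged 26.7 to 31.6 CPM in the mesoderm groups, and Itga2b, which encodes CD41, averaged 27.1 to 45.6 CPM in the HPC groups. Libraries within groups also differed. The summed level of 14 endothelial markers was 176 CPM in wild-type B9.3 and 136 CPM in P1-CTCF-KO E9.1 mesoderm but 31.3 to 77.6 CPM in the other 7 mesoderm libraries, and among HPCs it was 133 CPM in P2-CTCF-KO D2.1 against 21.5 to 65.6 CPM in the other 11. In sorted bulk samples, fewer cells of a type and less RNA per cell cannot be told apart.

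These regulators act at different steps of blood formation. Mecom, Hlf, Prdm16 and Hhex are associated with stem cells or with the hemogenic endothelium that gives rise to them, Kmt2a (the histone methyltransferase MLL1) maintains Hox gene expression, and Myb drives proliferation of definitive progenitors. Gfi1 and Gfi1b are related zinc-finger repressors that recruit the LSD1 demethylase and turn off endothelial genes during the endothelial-to-hematopoietic transition, Gfi1b being also required in erythroid and megakaryocytic cells. Bcl11a is a repressor of embryonic and fetal globin genes and a lymphoid regulator.

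The members differed in pattern. Gfi1b was close to absent in mESCs and mesoderm and became the highest of the 9 per length in HPCs. Kmt2a was transcribed in every library at a level that varied little, whereas Myb, Hhex, Bcl11a and Mecom were low and varied between libraries. Gfi1, Hlf and Prdm16 were at or near the floor in every mesoderm and HPC library. Per kb of gene span, the median HPC level was 0.462 CPM per kb for Gfi1b, 0.214 for Kmt2a, 0.111 for Hhex, 0.0704 for Myb, 0.0189 for Bcl11a and 0.00114 for Mecom, and the library ranges of neighbours in this order overlapped. In mesoderm, Kmt2a led with a median of 0.228 CPM per kb, and its lowest library (0.184) lay below the highest Hhex library (0.256).

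**Figure D1:**
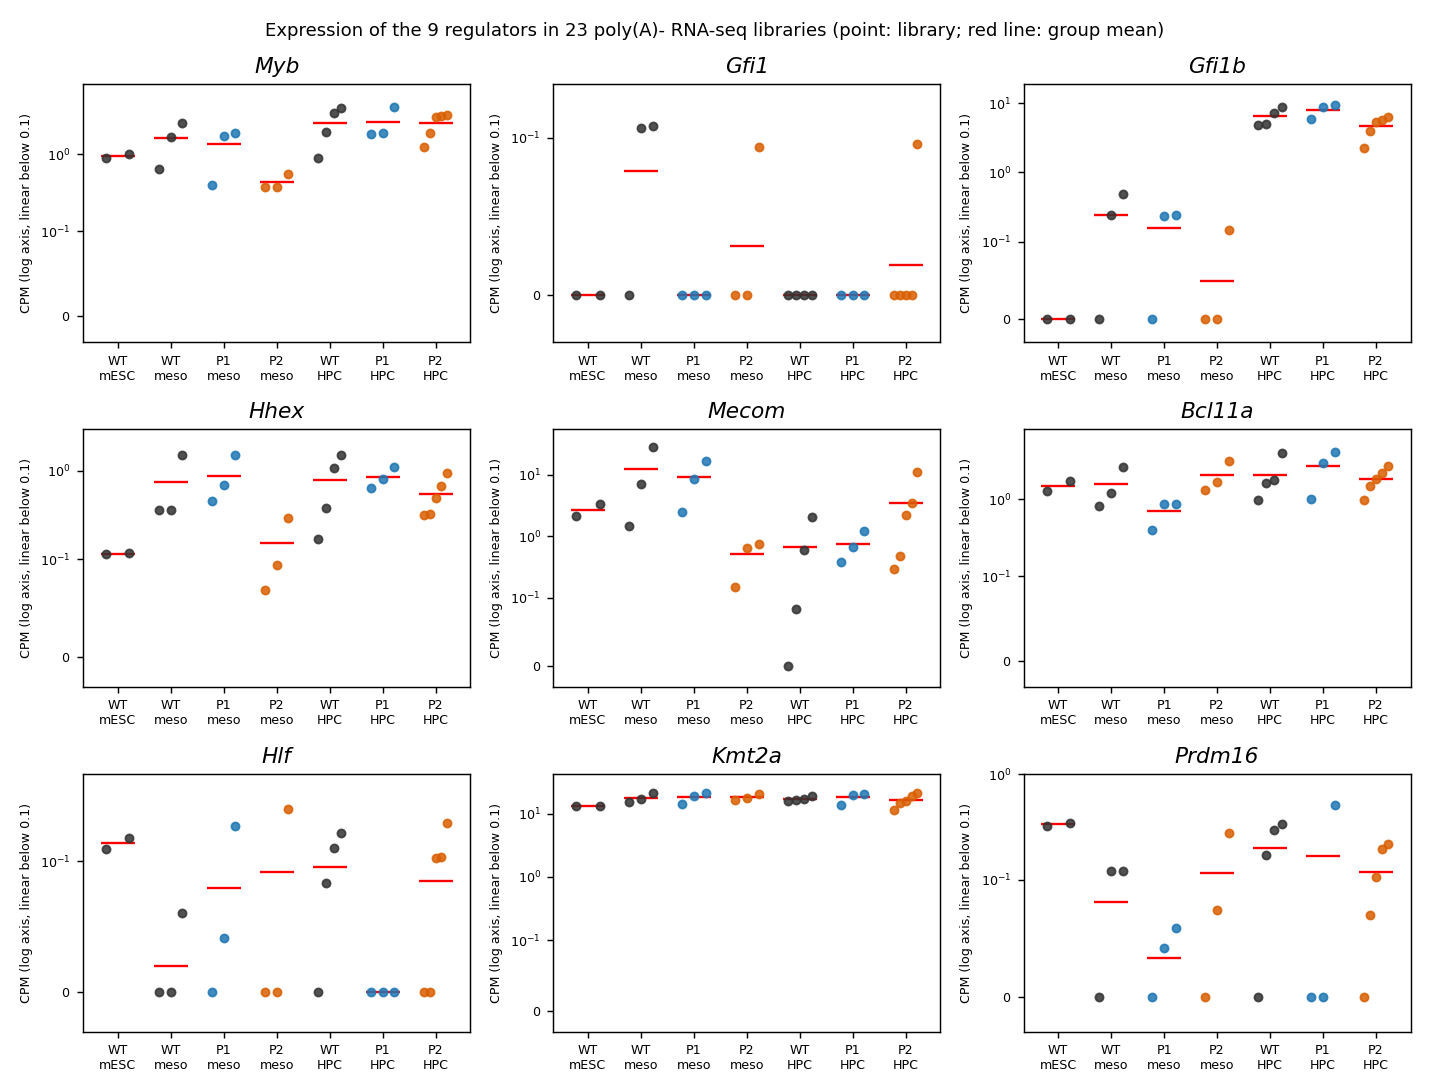
Level of each regulator in CPM (log axis, linear below 0.1 CPM) by group, with WT for wild type, P1 for P1-CTCF-KO, P2 for P2-CTCF-KO, meso for Flk1+ mesoderm and HPC for CD41+ HPCs. Each point is a library and each red line the group mean; the 12 HPC libraries of Gfi1b lie between 2.23 and 9.53 CPM, above every mesoderm library, and Kmt2a stays between 11.5 and 21.4 CPM in all 23 libraries.

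Accessible chromatin around the members was read from ATAC-seq peaks called on merged wild-type mesoderm libraries and merged wild-type HPC libraries. Outside annotated exons, 7 intervals were the closest to the gene start for the members that changed between stages, and their sequences are shown here so that the elements can be compared. Each is printed 5′ to 3′ on the strand of its gene in mm9, and capitals mark matches on either strand to a few core motifs. RUNX proteins were represented by TGTGGT. Factors of the GATA family were represented by AGATAA and, as an alternative, by TGATAA. ETS factors were represented by CCGGAA and, as an alternative, by AGGAAG. The E-box bound by TAL1 and LYL1 was searched as CANNTG, and the MYB core as AACNG.
Gfi1b, intron, chr2:28471993-28472063, mesoderm peak: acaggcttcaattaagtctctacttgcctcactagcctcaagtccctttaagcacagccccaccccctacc
Gfi1b, intergenic past the 3′ end, chr2:28457871-28457947, HPC peak: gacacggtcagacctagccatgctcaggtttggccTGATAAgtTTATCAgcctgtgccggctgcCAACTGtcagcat
Hhex, intron, chr19:37510094-37510242, HPC peak: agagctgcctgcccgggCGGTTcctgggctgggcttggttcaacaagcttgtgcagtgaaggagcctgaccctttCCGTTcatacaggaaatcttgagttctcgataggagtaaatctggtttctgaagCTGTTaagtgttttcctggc
Mecom, intron, chr3:30407742-30407835, mesoderm peak: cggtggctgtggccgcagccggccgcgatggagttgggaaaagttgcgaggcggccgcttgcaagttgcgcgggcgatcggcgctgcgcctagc
Mecom, intron, chr3:30407387-30407453, HPC peak: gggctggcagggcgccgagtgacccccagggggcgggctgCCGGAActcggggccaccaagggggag
Bcl11a, upstream of the start, chr11:23977940-23978033, mesoderm peak: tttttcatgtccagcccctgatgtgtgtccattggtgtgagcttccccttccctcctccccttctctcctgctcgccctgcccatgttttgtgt
Bcl11a, intron, chr11:24031009-24031078, HPC peak: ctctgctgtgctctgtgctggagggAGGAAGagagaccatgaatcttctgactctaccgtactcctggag

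The Gfi1b element 19593 bases past the gene start held TGATAA at 2 positions, 36 and 44 of its 77 bases, on opposite strands and separated by gt. Windows of that length at the centres of all 29037 HPC peaks held TGATAA at 1 or more positions in 3.08% of cases. The same element held 1 E-box that overlapped 1 AACNG match, motifs present in 30.9% and 37.0% of such windows. This Gfi1b element overlapped a peak in mesoderm as well as in HPCs, as did the Hhex interval, the Mecom HPC interval and the upstream Bcl11a interval. The stage printed beside an interval thus names the list it was taken from. The Mecom HPC interval held CCGGAA at 1 position (4.03% of windows of its length), the Bcl11a intronic interval AGGAAG at 1 position (19.8%) and the Hhex interval AACNG at 3 positions (59.4%). TGTGGT was in none of the 7 intervals, and between 5.75% and 16.1% of windows of their lengths held it. These matches describe the letters of the intervals and were not tested for binding.

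Gfi1b, on chromosome 2 from 28464969 to 28477502 (minus strand), rose from mesoderm to HPCs in all 3 genotypes. It had 0 counts in both mESC libraries. In wild-type mesoderm it had 0 counts in B9.3, 4 in C6.1 and 4 in C8.1, in P1-CTCF-KO mesoderm 0 in E9.1, 4 in E7.1 and 6 in E7.2, and in P2-CTCF-KO mesoderm 0 in D2.1, 0 in D10.1 and 2 in E9.1. Of the 9 mesoderm libraries, 4 were thus at 0 and no library exceeded 0.486 CPM.

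In HPCs Gfi1b was counted in every library. Wild-type levels were 4.83 CPM in C6.1, 4.92 in C8.1, 8.76 in B9.3 and 7.16 in the second B9.3 library. P1-CTCF-KO levels were 9.53 CPM in E7.1, 5.81 in E7.2 and 8.74 in E9.1. P2-CTCF-KO levels were 6.30 CPM in D10.1, 3.94 in its second library, 2.23 in D2.1, 5.39 in its second library and 5.76 in E9.1. No mesoderm library overlapped an HPC library, and the lowest HPC value belonged to D2.1. That library had the highest endothelial markers and the lowest erythroid marker sum (33.8 CPM, against 63.3 to 251 in the other 11). Among the other 11, Gfi1b did not rise with the erythroid sum. P1-CTCF-KO E9.1 had 63.3 CPM of erythroid markers and 8.74 of Gfi1b, whereas E7.2 had 251 and 5.81. Summed megakaryocyte markers were 530 CPM in P1-CTCF-KO E7.1, 548 in E9.1 and 449 in wild-type B9.3, the libraries with the most Gfi1b. The second P2-CTCF-KO D10.1 library had 97.8 CPM of them with 3.94 of Gfi1b. P2-CTCF-KO D10.1 and wild-type C8.1 had 603 and 391 CPM of them with 6.30 and 4.92 of Gfi1b. Neither relation was tested.

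The increase from mesoderm to HPCs was called in each genotype (edgeR quasi-likelihood, called at an adjusted p under 0.05 and more than 2-fold). Gfi1b passed the filter of this fit only through its HPC libraries, where it is high, so these calls are given no weight. The library levels above describe the rise. The fitted log2 fold change was 4.91 (SE 0.67, adjusted p = 3.79e-05) in wild type and 5.44 (SE 0.66, adjusted p = 9.27e-06) in P1-CTCF-KO. In P2-CTCF-KO it was 6.23 (SE 0.80, adjusted p = 1.58e-05), where mesoderm had only 2 counts in all and the ratio of pooled counts was 87.1 (95% counting interval 23.9 to 723). The test of the difference from the wild-type increase gave adjusted p of 1 for P1-CTCF-KO and 0.964 for P2-CTCF-KO, with SEs of 1.04 and 1.24 on the log2 scale, so that large differences would have passed unseen. Between mESCs and wild-type mesoderm the counts were 0 and 8 in all. Gfi1b passed the filter of that fit only through its HPC libraries, where it is high, so its test there is given no weight.

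Gfi1, the paralog of Gfi1b on chromosome 5 from 108145673 to 108154825 (minus strand), was counted 6 times over all 23 libraries. The counts were 2 in wild-type mesoderm B9.3, 2 in C8.1, 1 in P2-CTCF-KO mesoderm D2.1 and 1 in the second P2-CTCF-KO HPC library of D10.1. Every library was below the floor of 3 counts, so a change of Gfi1 was not detectable at this depth, and it entered no fit. Of 8 genes of the LSD1 corepressor complex that GFI1 and GFI1B recruit, 7 were tested between mesoderm and HPCs. Gse1, a component of this complex, rose in all 3 genotypes, with log2 fold changes of 1.93 (SE 0.31) in wild type, 2.61 (SE 0.33) in P1-CTCF-KO and 2.06 (SE 0.30) in P2-CTCF-KO. Rcor3 was also called higher in both knockouts, Rcor1 in P2-CTCF-KO, and none was called lower.

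Mecom, on chromosome 3 from 29850217 to 30408681 (minus strand), encodes the long zinc-finger protein MDS1-EVI1 and the shorter EVI1. Among the 9 members it had the widest range of CPM in mesoderm. Wild-type mesoderm gave 28.1 CPM in B9.3, 1.46 in C6.1 and 7.15 in C8.1, P1-CTCF-KO gave 8.52 in E7.1, 2.47 in E7.2 and 16.6 in E9.1, and P2-CTCF-KO gave 0.656 in D2.1, 0.758 in D10.1 and 0.148 in E9.1. All 3 P2-CTCF-KO libraries lay below all 6 others. The mESC libraries gave 3.32 and 2.11 CPM.

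In HPCs Mecom was low in wild type and P1-CTCF-KO. Wild-type levels were 0 CPM in C6.1, 0.0833 in C8.1, 0.601 in B9.3 and 2.05 in the second B9.3 library, and P1-CTCF-KO levels were 1.22, 0.671 and 0.380 CPM in E7.1, E7.2 and E9.1. P2-CTCF-KO levels were 0.291 CPM in D10.1, 0.480 in its second library, 11.2 in D2.1, 2.22 in its second library and 3.48 in E9.1. The groups overlapped, and D2.1 with 160 counts stood well above the other 11 HPC libraries, which had at most 32. This is the HPC library with 133 CPM of endothelial markers, and their part in its Mecom level was not tested.

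From mesoderm to HPCs, Mecom fell by 4.34 on the log2 scale in wild type (SE 1.16, adjusted p = 0.00742, edgeR) and by 3.69 in P1-CTCF-KO (SE 1.33, adjusted p = 0.0342). In P2-CTCF-KO the fitted change was 2.77 (SE 1.22, adjusted p = 0.0815), which edgeR did not call and DESeq2 did (2.67, adjusted p = 0.0458), and by edgeR it was 1.57 (adjusted p = 0.292) without D2.1. Without wild-type mesoderm B9.3 the wild-type change was -2.86 with an adjusted p of 0.0751, and the P1-CTCF-KO call was lost on leaving out mesoderm E7.1 or E9.1 or any 1 of its 3 HPC libraries (adjusted p up to 0.120). The change of P2-CTCF-KO exceeded that of wild type by 7.11 on the log2 scale (SE 1.70, unadjusted p = 0.000486), but over all 9170 genes the edgeR adjusted p was 0.282. With DESeq2 this difference was 6.96 with an adjusted p of 0.0125, so the call depended on the tool.

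**Figure D2:**
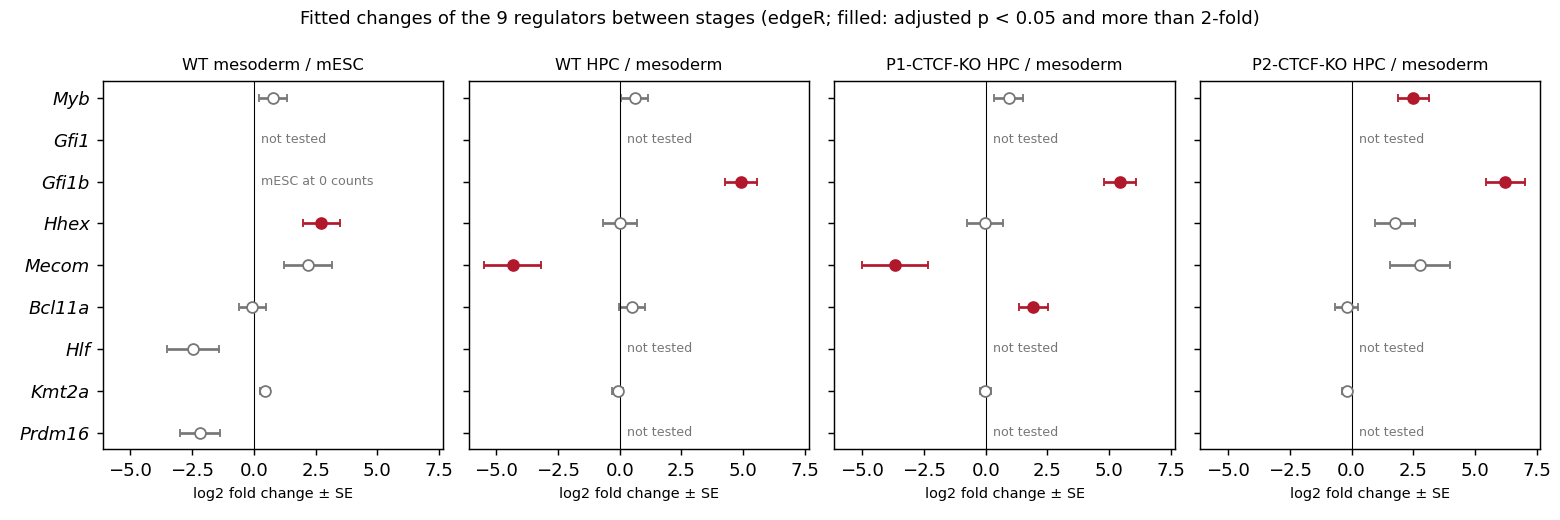
Fitted log2 fold change of each regulator with its SE (bars) for wild-type mesoderm against mESC and for HPCs against mesoderm in each genotype; filled red points passed the call and members below the count filter read not tested. No point is drawn for Gfi1b against mESCs, which had 0 counts. Gfi1b lies far to the right in the other 3 panels, where only its HPC libraries brought it past the filter. Mecom lies at -4.34 in wild type, -3.69 in P1-CTCF-KO and 2.77 in P2-CTCF-KO.

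Hhex, a homeobox gene on chromosome 19 from 37509330 to 37515221 (plus strand), is expressed in hemangioblasts and endothelium. Its levels were 0.115 and 0.118 CPM in mESCs. Wild-type mesoderm gave 1.51 CPM in B9.3, 0.364 in C6.1 and 0.361 in C8.1, P1-CTCF-KO gave 0.700, 0.453 and 1.51 in E7.1, E7.2 and E9.1, and P2-CTCF-KO gave 0.0938, 0.0689 and 0.296 in D2.1, D10.1 and E9.1. As for Mecom, all P2-CTCF-KO mesoderm libraries lay below the others. HPC levels ranged from 0.172 to 1.5 CPM and overlapped between genotypes.

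Between mESCs and wild-type mesoderm Hhex rose by 2.74 on the log2 scale (SE 0.77, adjusted p = 0.0219, edgeR). The call was lost without mesoderm B9.3 (1.64, adjusted p = 0.196) and without either mESC library (adjusted p of 0.161 and 0.155, with the remaining mESC library assumed to vary like the other groups). No change to HPCs was called, the largest being 1.76 (SE 0.81, adjusted p = 0.0945) in P2-CTCF-KO. Counts of Hhex were at most 26 in a library.

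Within mesoderm, Mecom and Hhex were highest where endothelial and hematopoietic markers were highest. Wild-type B9.3 and P1-CTCF-KO E9.1, with endothelial sums of 176 and 136 CPM, held the top Mecom and Hhex values, and the 6 libraries of wild type and P1-CTCF-KO kept the same order by Mecom as by the endothelial sum (Spearman's rho 1, Pearson's r 0.971). Pearson's r was 0.973 for Hhex and -0.542 for Bcl11a, descriptions over 6 libraries that share their depth scaling and of which 2 lie far above the others. The P2-CTCF-KO libraries lay apart, with endothelial sums of 31.3 to 37.9 CPM and 10 of 14 endothelial genes detected in each. Emcn and Sox18 were at 0 in all 3, Cdh5 had at most 4 counts, and most of the sum was Kdr. Their summed mesoderm markers (8 genes, among them T and Eomes) reached 51.1 to 89.6 CPM against 7.38 to 23.8 in the other 6 libraries. The part of these markers in the levels of Mecom, Hhex and Myb was not tested.

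**Figure D3:**
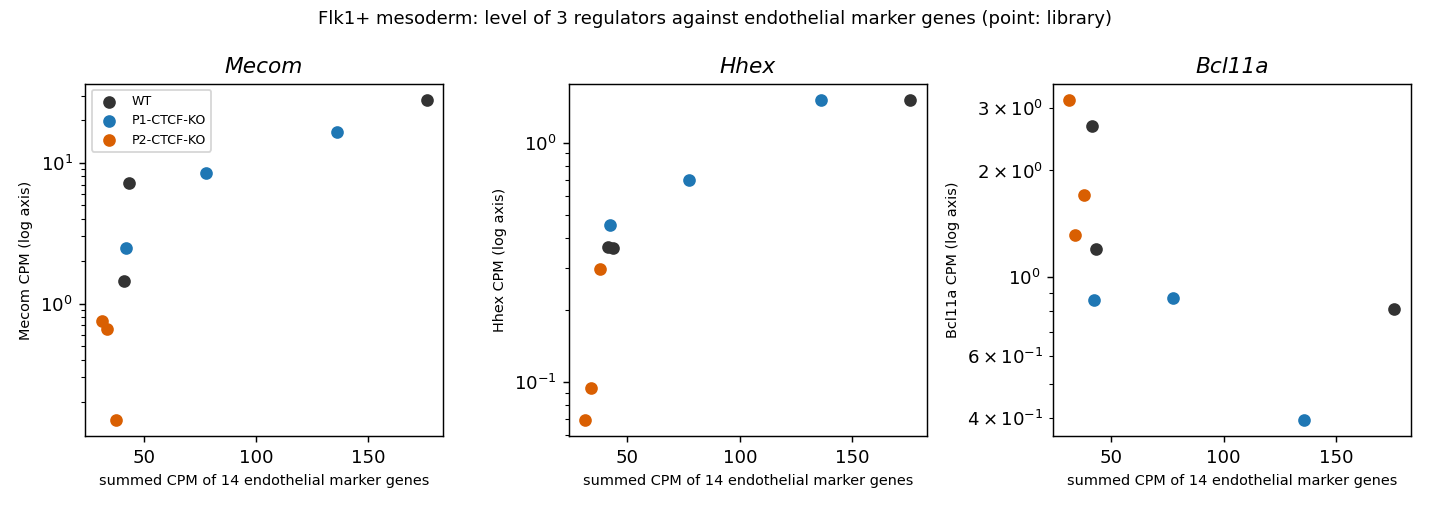
Level of Mecom, Hhex and Bcl11a in CPM (log axis) in the 9 Flk1+ mesoderm libraries against the summed CPM of 14 endothelial marker genes; each point is a library, coloured by genotype. The 3 P2-CTCF-KO libraries sit at the left with 31.3 to 37.9 CPM of endothelial markers and hold the lowest Mecom and Hhex values.

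Myb, on chromosome 10 from 20844735 to 20880790 (minus strand), was present in every library. It gave 0.900 and 1.0 CPM in mESCs. Wild-type mesoderm gave 0.639 CPM in B9.3, 1.70 in C6.1 and 2.58 in C8.1, P1-CTCF-KO gave 1.75, 1.89 and 0.394 in E7.1, E7.2 and E9.1, and P2-CTCF-KO gave 0.375, 0.551 and 0.370 in D2.1, D10.1 and E9.1. The P2-CTCF-KO values lay below the 3 wild-type values, and P1-CTCF-KO E9.1 lay among them.

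In HPCs Myb ranged from 0.887 to 3.97 CPM in wild type, from 1.82 to 4.18 in P1-CTCF-KO and from 1.25 to 3.26 in P2-CTCF-KO. It rose from mesoderm in P2-CTCF-KO by 2.50 on the log2 scale (SE 0.62, adjusted p = 0.00412, edgeR) and was not called in the other genotypes. This does not show that the genotypes differed, since the difference from the wild-type change was 1.89 (SE 0.82) with an adjusted p of 0.631. Of 5 coactivators and relatives of MYB, 4 were tested between these stages. Only Taf12, a TFIID subunit, was called, in wild type (1.31, SE 0.45, adjusted p = 0.0303), and Mybl2, a cell-cycle relative of Myb, fell between mESCs and mesoderm by 2.95 on the log2 scale (SE 0.30). Taf12 passed the filter only through HPC libraries, where it is high, so its call is given no weight.

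Bcl11a, on chromosome 11 from 23978055 to 24073558 (plus strand), ranged from 0.394 to 3.17 CPM in mesoderm and from 0.978 to 4.18 CPM in HPCs. In P1-CTCF-KO mesoderm it gave 0.875 CPM in E7.1, 0.864 in E7.2 and 0.394 in E9.1, and in P1-CTCF-KO HPCs 1.01, 3.02 and 4.18 in the same clones. The rise in this genotype was called (log2 fold change 1.94, SE 0.57, adjusted p = 0.0118, edgeR), the groups did not overlap, and without HPC E9.1 the value was 1.54 with an adjusted p of 0.0729. It was not called in wild type or P2-CTCF-KO. Among 8 genes that act with BCL11A or in globin silencing, Klf1, an erythroid activator, rose to HPCs in all 3 genotypes from at most 3 counts a mesoderm library to at most 17 a HPC library. Sall4, a pluripotency regulator, and Bcl11b, the T-lineage paralog of Bcl11a, were called lower in HPCs of all 3, and Sox6, a partner in globin silencing, was called higher in P2-CTCF-KO (4.70). Klf1 passed the filter only through HPC libraries, Bcl11b only and Sall4 mainly through mesoderm libraries, where each is high. The calls of Klf1, Bcl11b and Sall4 are therefore given no weight. Between mESCs and wild-type mesoderm no gene of this list was called.

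Kmt2a, on chromosome 9 from 44611437 to 44689372 (minus strand), had 13.0 and 12.9 CPM in mESCs, 14.4 to 20.8 in mesoderm and 11.5 to 21.4 in HPCs. It was called in none of the 12 comparisons. None of 10 genes of its complex and cofactors was called between mesoderm and HPCs, and Ash2l, Dpy30 and Rbbp5, core subunits of the methyltransferase complex, fell between mESCs and mesoderm by 1.24 to 1.59 on the log2 scale. Of 6 known MLL1 targets, 3 passed the filter: Meis1 rose at both steps in wild type (2.58, adjusted p = 0.0496, then 3.14, adjusted p = 0.00922) and from mesoderm to HPCs in both knockouts. Mef2c, a cardiac and lymphoid regulator, and Pbx3, a MEIS partner, were called higher in wild-type mesoderm than in mESCs, and Mef2c in HPCs of both knockouts.

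Hlf, on chromosome 11 from 90197848 to 90252231 (minus strand), and Prdm16, on chromosome 4 from 153690233 to 154010982 (minus strand), were counted mainly in mESCs. Hlf had 29 and 13 counts in the mESC libraries and at most 4 in any later library. Prdm16 had 59 and 35 counts in mESCs and at most 4 afterwards. In mESCs these were 0.158 and 0.127 CPM for Hlf and 0.322 and 0.343 CPM for Prdm16, close to the floor of the mesoderm libraries. Wild-type mesoderm had 1 count of Hlf in all, a ratio of 0.161 to mESCs (95% counting interval 0.00399 to 0.950), and 3 counts of Prdm16, a ratio of 0.216 (0.0438 to 0.652). Neither difference was called by edgeR (adjusted p = 0.0988 and 0.0665). Prdm16 was called lower without the filter on low counts (adjusted p = 0.0416) and without the second wild-type HPC library of B9.3 (0.0441), but in no other alternative. Hlf and Prdm16 passed the filter of that fit only through the mESC libraries, where they are high, so their tests there are given no weight. Nfil3, a bZIP repressor related to Hlf, rose in mesoderm (1.91, adjusted p = 0.0171) and was the only 1 of 3 such relatives to be called. Both genes were below the filter in every fit of mesoderm and HPC libraries, and 2 other entries overlap Prdm16, 1 of them on the opposite strand.

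Counted over the list, Hhex and Gfi1b were called, both higher, among 8 members tested between mESCs and wild-type mesoderm, where 24.4% of all genes tested were called. Gfi1b does not count as support there, since only its HPC libraries brought it past the filter. Likewise, only the mESC libraries brought Hlf and Prdm16 past it. Between mesoderm and HPCs, 2 of 6 were called in wild type (27.3% of all genes), 3 of 6 in P1-CTCF-KO (32.7%) and 2 of 6 in P2-CTCF-KO (28.2%). With 6 members tested these shares are not far from the background, and Gfi1, Hlf and Prdm16 were below the filter, as was Gfi1b when mesoderm libraries were fitted alone. Gfi1b was among those called in each genotype. It passed the filter of the stage fit only through its HPC libraries, so it does not count as support here either. The median member log2 fold change was 0.25 in wild type, 0.46 in P1-CTCF-KO and 2.13 in P2-CTCF-KO, against 0.01, -0.07 and 0.09 over all genes. All 7 partner factors of the blood stem cell heptad (Tal1, Lyl1, Lmo2, Gata2, Runx1, Erg and Fli1) were called higher in wild-type mesoderm than in mESCs. Lyl1, Lmo2, Erg and Fli1 had at most 3, 11, 5 and 3 counts in an mESC library. They passed that filter only through later libraries, where they are high, so their calls there are given no weight. From mesoderm to HPCs 4 of the 7 were called higher in wild type, 5 in P1-CTCF-KO and 6 in P2-CTCF-KO. Lyl1 was among them in each genotype but passed the filter only through HPC libraries, so it is given no weight. The Methods name ribosomal RNA depletion for mESC RNA and none for the later stages, so the first step and the preparation cannot be told apart.

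The genotypes were then compared within each stage, to ask whether loss of a CTCF site altered the regulators. In mesoderm 5 members passed the filter (Myb, Hhex, Mecom, Bcl11a and Kmt2a), and none was called in P1-CTCF-KO against wild type, where edgeR and DESeq2 each called 0 of all genes (0% by edgeR, 166 genes at an unadjusted p under 0.05, none of them a member). None was called in P2-CTCF-KO against wild type either (0.0342% of all genes, 3 genes), although 3 of the 5 had an unadjusted p under 0.05, as did 1409 of all genes (16.1%). Mecom was lower by 4.55 on the log2 scale (SE 1.11, adjusted p = 0.135), Hhex by 2.27 (SE 0.86, adjusted p = 0.239) and Myb by 1.85 (SE 0.66, adjusted p = 0.212). Hhex and Myb passed the filter only, and Mecom mainly, through wild-type and P1-CTCF-KO libraries, where they are high. A P2-CTCF-KO mesoderm library had at most 11 counts of Mecom, 4 of Hhex and 8 of Myb. Their p-values and calls in this comparison are therefore given no weight, and the library levels above describe the difference. DESeq2, with 166 genes called, called Mecom (-4.54, adjusted p = 0.0120), and so did edgeR without wild-type C6.1 (-5.04, adjusted p = 0.0326). Without wild-type B9.3 the difference was -3.11 (adjusted p = 0.279).

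P2-CTCF-KO against P1-CTCF-KO mesoderm gave differences of the same direction for these genes. Mecom was at -4.10 (SE 1.11, adjusted p = 0.236), Hhex at -2.39 (SE 0.84) and Myb at -1.61 (SE 0.65), while Bcl11a was at 1.54 (SE 0.50, adjusted p = 0.314). None was called by edgeR, which called 0 of all genes (987 at an unadjusted p under 0.05), and DESeq2 called Mecom among 98 genes (adjusted p = 0.0405). This comparison shares its P2-CTCF-KO libraries and its filter with the previous one, so the tests of Mecom, Hhex and Myb are given no weight here either.

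In HPCs 5 members passed the filter (Myb, Gfi1b, Mecom, Bcl11a and Kmt2a) and none was called in any of the 3 genotype comparisons. edgeR and DESeq2 called 0 of all genes in each. Without P2-CTCF-KO D10.1, edgeR called 259 genes between the knockouts, so the 0 there rests on that library. With all libraries, 260, 145 and 650 of 7422 genes had an unadjusted p under 0.05 by edgeR in P1-CTCF-KO against wild type, P2-CTCF-KO against wild type and between the knockouts. Mecom was higher in P2-CTCF-KO than in wild type by 2.55 (SE 1.10, adjusted p = 1), a value that was 1.32 without D2.1, and Gfi1b was lower in P2-CTCF-KO than in P1-CTCF-KO by 0.79 (SE 0.32, adjusted p = 0.527). The change between stages did not differ from wild type for any member by edgeR, either in P1-CTCF-KO (0% of all genes, 306 at an unadjusted p under 0.05, none a member) or in P2-CTCF-KO (0.0218%, 2 genes). A p above the threshold does not show that the genotypes were alike.

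At the gene starts, within 1 kb on each side, a mesoderm ATAC-seq peak was present for 7 of 9 members (55.2% of all genes), the exceptions being Myb and Prdm16. An HPC peak was present for 2 of 9, Hhex and Bcl11a (37.1% of all genes). Gfi1b, whose transcription rose most, therefore had a called peak at its start in mesoderm (chr2:28477320-28477423, in an exon) but not in HPCs. With 5 kb on each side the HPC number was 4 of 9 (44.2% of all genes). The lists hold no peak height, and the mesoderm list joined 4 libraries and 76766 peaks whereas the HPC list joined 2 libraries and 29037 peaks, so the lists differ in how readily a peak was called.

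Over each gene and 20 kb on either side, the members had 61 mesoderm peaks and 12 HPC peaks, of which 9 overlapped a mesoderm peak (69.4% of all HPC peaks did). Mecom had 24 mesoderm peaks over its 558.5 kb and 2 HPC peaks. One of these 2 lay 1261 bases past the start, overlapped by a CTCF peak, and the other lay 496475 bases past the start (chr3:29912153-29912260), 80 bases upstream of an annotated internal transcript start. Gfi1b had 10 and 2 peaks, Prdm16 9 and 0, Bcl11a 6 and 4, Hhex 4 and 1, Kmt2a 3 and 1, Gfi1 2 and 0, Hlf 2 and 2, and Myb 1 and 0. Bcl11a was thus the member with the most HPC peaks, 2 of them absent from the mesoderm list.

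CTCF binding was available from 416B cells, a mouse hematopoietic progenitor line, as peaks called on ChIP-seq. A CTCF peak lay within 1 kb of the start of Gfi1b, Mecom and Kmt2a, which is 3 of 9 members against 12.8% of all genes. Gfi1b had 9 CTCF peaks within its span and flanks, at distances of -18000 to 28987 bases from its start, and Mecom had 11. Of the 61 mesoderm ATAC-seq peaks of the members, 12 overlapped a CTCF peak (18.4% of all mesoderm peaks did), and of the 12 HPC peaks 2 did (19.9% of all HPC peaks). The cells are a different line, so these values do not describe CTCF in the differentiating cultures.

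**Figure D4:**
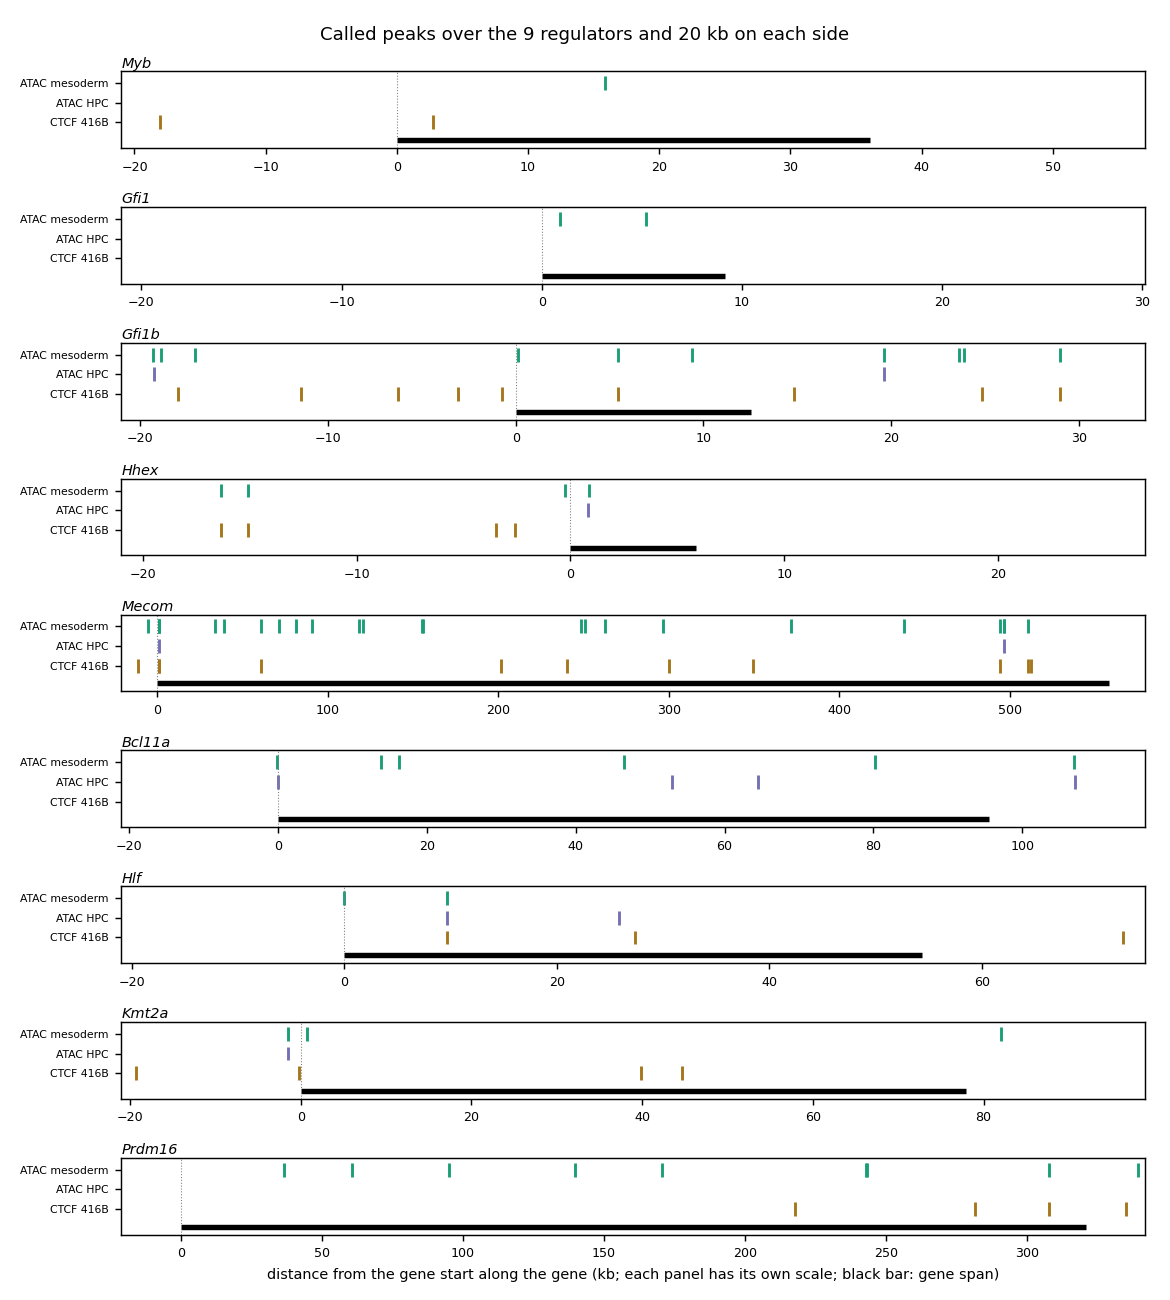
Called peaks over each regulator and 20 kb on each side, by distance from the gene start along the gene in kb (each panel has its own scale), with the gene span as a black bar. Ticks mark ATAC-seq peaks of wild-type mesoderm (green) and HPCs (purple) and CTCF peaks of 416B cells (brown); Mecom has 24 mesoderm and 2 HPC peaks.

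The genes whose group means most resembled each member were found over the 7 groups by the root mean square difference of centred log2 CPM. For Gfi1b these were Uba7 (0.189) and Il10ra (0.290), for Mecom Nfib (0.622) and Coro2b (0.749), and for Hhex Pde4b (0.203) and Cdc42ep1 (0.302). For Myb they were Gkap1 (0.124) and Ica1 (0.149), for Bcl11a Pdlim5 (0.134) and Aagab (0.185), for Kmt2a Kdm3b (0.0514) and Acin1 (0.0606), and for Prdm16 Tst (0.120) and Ube2t (0.133). Mecom had the least similar neighbours of the 7 members compared. Hlf and Gfi1 were below the filter. Nothing about shared function follows from these distances.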

How the data were processed

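The RNA values are read counts per gene deposited by the authors, who mapped reads to mm9 with STAR, removed duplicates with picard and counted reads over exons and introns with featureCounts, without normalization. The annotation and strand setting of the counting are not given in the sources used here; the library kit was directional. Peak intervals deposited by the authors hold a start and an end only. They come from MACS2, which was run on merged replicates for ATAC-seq and with an input control for CTCF. The Methods describe the ATAC-seq line as carrying a Runx1 enhancer transgene, whereas the labels name E14-TG2a. Every one of the 23 count columns matched a sample (0 left out).

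The test was edgeR 4.0.16 in R 4.3.3 (TMM, filterByExpr with a minimum count of 10, quasi-likelihood test, Benjamini-Hochberg adjustment over all genes tested), with calls requiring adjusted p below 0.05 plus more than 2-fold change in either direction. Wild-type mesoderm and mESCs were compared in a fit of 9 libraries, stages and their differences between genotypes in 21, and genotypes in 9 mesoderm or 12 HPC libraries. CPM are TMM-scaled over all 23 libraries, whereas fold changes come from the fits, so the 2 need not correspond exactly. Each edgeR SE is the absolute log2 fold change divided by the square root of the quasi-likelihood F statistic. It is approximate, above all where a group is near 0 counts. Alternatives were DESeq2 1.42.0, RLE size factors, no filter, no fold limit, ribosomal and multi-locus entries (186) left out, a joint fit of all 23, omission of single libraries, libraries of a clone summed and the clone as a block. The same clone at both stages is the same cell line, so clones pair the stages; deviations of a clone from its group means correlated between stages with r from -0.30 to 0.32 over genes. All within-group pairs of libraries differed by more than sampling noise (chi-square per gene from 2.53 to 35.1), so none was merged. P-values measure the spread between these libraries, which is technical for mESCs. Both tools were tested on simulated counts.

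Exons came from GENCODE vM1 and sequence from NCBIM37 (mm9); peak coordinates are 1-based. The 9 members, the gene lists and the motifs were chosen with earlier results of these data known. Every member is named, genes of other lists only where called (at most 4 a list by adjusted p), and for each member that passed the filter the 2 genes nearest in pattern. Intervals printed are those nearest the gene start outside annotated exons.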

Additional observations from a re-analysis of the deposited data

Results flagged for a closer look

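Gfi1 was flagged in P2-CTCF-KO HPCs, where the second library of D10.1 lay apart from the other 4: its level was 0.0961 CPM, from 1 count, and the others were at 0. In 17 comparisons of a member within a group of 4 or 5 libraries, this was the only library to stand apart by Dixon's criterion. Chance meets that criterion in about 1 of 20 groups of normally spread values. A library with 1 count among libraries at 0 always meets it, so the flag carries no information about Gfi1.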

How the results depend on the processing

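Between mESCs and wild-type mesoderm, 5 members were called in place of 2 without the filter on low counts, and 0 to 3 on leaving out single libraries, with 0 without the first mESC library, 1 without the second or without mesoderm B9.3, and 3 without mesoderm C6.1 (Mecom added) or the second HPC library of B9.3 (Prdm16 added). The remaining mESC library is then assumed to vary like the other groups. Leaving out single libraries gave 1 to 2 members in the wild-type step to HPCs (1 without mesoderm B9.3), 1 to 3 in the P1-CTCF-KO step (1 without HPC E9.1) and 0 to 1 for P2-CTCF-KO against wild-type mesoderm (1 without wild-type C6.1). With DESeq2, 1 member in place of 0, Mecom, was called for P2-CTCF-KO mesoderm against wild type, for P2-CTCF-KO against P1-CTCF-KO mesoderm and for the difference in the step of P2-CTCF-KO; without the filter 2 members (Mecom and Myb) and 1 (Mecom) were called in the first pair. Over all genes, P2-CTCF-KO against wild-type mesoderm moved from 3 to 166 with DESeq2, 431 without the filter and 18 in a joint fit, P2-CTCF-KO against P1-CTCF-KO mesoderm from 0 to 98, 267 and 5, and the difference in the step of P2-CTCF-KO from 2 to 37 with DESeq2; P2-CTCF-KO against P1-CTCF-KO HPCs moved from 0 to 259 without P2-CTCF-KO D10.1. The cause was not tested. With the clone as a replicate block pairing the stages, 2, 3 and 2 members were called in the steps of the 3 genotypes (in the order wild type, P1, P2) and 0 in both differences, as without it. For peaks at gene starts, only 1 member (Hlf) kept one in mesoderm when peaks wider than the median were used (45.7% of all genes), and with 5 kb on each side 4 members had one in HPCs (44.2%) and 5 a CTCF peak (32.2%). Only the 25 member fold changes with an unadjusted p under 0.05 in the main edgeR fit were followed. Of their 533 alternative values, 510 kept their side of the threshold, 11 lost and 12 gained a call, and 0 reversed. Since fold changes near 0 were left out by that choice, the lack of reversals carries little information. Tests that are given no weight above are among the 25. Counts of Gfi1, Hlf, Prdm16 and mesoderm Gfi1b, and of Mecom, Hhex and Myb in P2-CTCF-KO mesoderm, limit any statement about them.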
